A study of Mus musculus with 70 samples.

Results

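The comparison described here set cultures from lung colonies of the third in vivo passage of RENCA cells given through the tail vein against those of the sixth. RENCA is a mouse renal adenocarcinoma line, here carrying a lentiviral green fluorescent protein, and every host was a young female immunocompetent BALB/c mouse. Members were taken by their sample titles: replicates 2, 3 and 5 of tail-vein passage 3 (P3) and replicates 1 to 4 of tail-vein passage 6 (P6). They were 7 of the 65 RNA samples in the series. The series compared 3 routes of serial passage: kidney to kidney (KPT sub-lines), kidney to lung (K-LM) and tail vein to lung (T-LM), the last being the route used here. For each T-LM passage the cells were injected into the caudal vein, lung nodules were taken and digested, and the cells were kept in culture for the next injection. The methods state that culture removed the cells that were not cancer cells, whereas the labels give lung metastases as the source and a tissue homogeniser in the RNA extraction, so how pure each RNA was could not be settled. Nothing in the labels says whether replicates were separate lineages or separate mice. The p-values below therefore measure only the spread between arrays of the same group, pooled over all arrays of the fit, which held other passages too.

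Cells placed in the tail vein reach the lung capillaries first, where they must arrest, leave the vessel and grow beside alveolar epithelium, resident macrophages and fibroblasts. Matrix proteins, the proteases that cut them, integrins that bind them, and chemokines that recruit leukocytes are the functions usually examined in such colonies. Ribosomal protein mRNAs are short and very abundant, begin with a run of pyrimidines and are made in concert. Long mRNAs are low in abundance and, in assays primed from the poly(A) tail, are more readily lost where RNA is broken or labelling is short.

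RNA was measured with one-colour Agilent arrays. A level is given below as log2 of the processed signal after subtraction of the array's 75th percentile over probes detected on all arrays, so that 0 marks a bright probe and the dimmest probes lie furthest below it. A change is P6 minus P3 on that scale, with the standard error (SE) of the limma fit to the 21 arrays of the parental cells (P0) and of T-LM P2 to P6. A gene is said to have risen or fallen where its Benjamini-Hochberg adjusted p over all tested probes was 0.01 or less. Of 21374 probes tested, 1496 passed, 1202 higher at P6 and 294 lower. Scaled to the 75th percentile of all probes instead, 1588 passed, the share of calls that was higher moved from 80.3% to 59.8%, and the median change of all tested probes moved from 0.07 to -0.20. With 1 probe per gene symbol, 867 of 12046 tested symbols rose (7.20%) and 169 fell (1.40%), and the median change was 0.14. All P6 arrays lay above all P3 arrays for 2226 symbols (18.5%) and below them for 1026 (8.52%). Gene lists below are described beside those figures and by their tested members only, since a dim gene could enter the test through P6 alone. The filter passed 22 of 36 chemokines on the array, 31 of 49 cytokines, 41 of 54 genes of the TGF-beta and BMP pathway, 35 of 45 matrix proteases and inhibitors, 31 of 36 interstitial collagens and crosslinking enzymes, 28 of 31 long mRNAs and all 78 cytosolic ribosomal protein mRNAs.

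The arrays were not of equal quality. Probes well above background made up 28.9%, 34.1% and 30.9% of probes on P3 replicates 2, 3 and 5, and 32.9%, 36%, 37.2% and 31.6% on P6 replicates 1 to 4. P3 replicate 2 had the lowest share and the lowest 75th percentile signal (215 units, against up to 590 on P6 replicate 3). Its levels correlated at 0.942 and 0.969 with those of the other P3 arrays across probes, which correlated at 0.973 with each other. The P6 arrays correlated at 0.975 to 0.992 with each other. Without P3 replicate 2, 873 probes passed, and without P6 replicate 3, 993. Of the 7 arrays, 6 formed pairs that shared a slide: both replicates 2, both replicates 3, and P3 replicate 5 with P6 replicate 4. With the slide as a fixed block 857 probes passed. With dim values raised to a common floor (level -6.64) 1104 passed, and genes named below that lost their call in that fit are given with their list.

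The 3 largest rises were all in chemokines, a family known for drawing leukocytes. Ccl6 stood at -8.44, -8.88 and -8.22 on the P3 arrays and at 1.97, 1.72, 1.27 and 0.72 on the P6 arrays. Pf4, platelet factor 4, stood at -8.36, -9.00 and -8.39 at P3 and at -0.36, -0.05, -0.37 and -1.11 at P6. Neither gene was above background on any P3 array, each was bright on all P6 arrays, and the groups were far from overlapping. For such genes the size of the rise has only a lower bound, given below as a fold with "at least", the P6 mean set against the P3 mean of the higher of the dim probe's own signal and the dimmest signal still called above background on that array. Ccl6 was at least 250-fold higher (change 9.94 ± 1.07 SE, adjusted p = 4.61e-06, limma) and Pf4 at least 67.3-fold higher (8.11 ± 0.96, adjusted p = 1.42e-05). Cxcl14, an epithelial chemokine, rose by 7.83 ± 1.04 (adjusted p = 4.77e-05) and was above background on 1 of 3 P3 arrays. Ccl9, an attractant of myeloid cells, was at least 37.1-fold higher (adjusted p = 8.82e-05).

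Of 22 tested chemokines, 11 rose and none fell, beside 7.20% and 1.40% of all tested symbols, and the median change was 1.69. The other risers were Cxcl12, the ligand of Cxcr4 (5.19), the macrophage inflammatory proteins Ccl3 (at least 13.3-fold) and Ccl4 (at least 3.44-fold), Ppbp (at least 3.1-fold), the neutrophil attractant Cxcl3 (1.99), Ccl8 (1.67) and Cxcl16 (1.44). Ccl2, the main monocyte attractant, changed by 1.34 and Cxcl1 by -0.55, and neither passed. Without P3 replicate 2 the count was 7, and Cxcl12 and Ccl4 were not called with the floor.

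Cytokines rose in part. Il6 stood at -8.10, -8.78 and -3.60 at P3 and at -0.88, -1.01, -0.47 and -1.65 at P6. P3 replicate 5 lay far above the other P3 arrays and still below all P6 arrays. The change was 5.83 ± 1.00 (adjusted p = 0.000571). Il11, a cytokine of the same receptor family, stood at -7.66, -7.64 and -5.74 at P3 and -1.39, -1.02, -0.91 and -1.83 at P6, a change of 5.72 ± 0.70 (adjusted p = 2.06e-05) with no overlap. Il1b, the secreted interleukin 1, was not above background at P3 and was at least 5.92-fold higher at P6 (adjusted p = 0.0019), and its antagonist Il1rn (at least 2.13-fold) and Il1a (at least 1.05-fold), each above background on 3 of 4 P6 arrays, rose too. In all, 9 of 31 tested cytokines and haematopoietic growth factors rose, among them the lymphatic factor Vegfc (at least 6.44-fold), Pgf (at least 2.77-fold), Csf2 (at least 2.57-fold) and Il34, a ligand of the Csf1 receptor (2.43 ± 0.27, adjusted p = 5.62e-06). Tnfsf12 fell by 0.86. The list median was 0.51, and Il1b, Il1a and Vegfc were not called with the floor.

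Among complement and acute-phase genes 6 of 29 rose and none fell (median 0.82). Serping1, the C1 inhibitor, was at least 17.2-fold higher, complement factor B (Cfb) at least 7.59-fold (adjusted p = 7.28e-08), C4b at least 6.84-fold and Hc, which encodes complement C5, at least 1.6-fold, and Socs3 rose by 2.90. Interferon-stimulated genes stayed near the background count: 3 of 50 rose, Zbp1 (1.77), Oasl1 (1.71 ± 0.28, adjusted p = 0.000375) and Ifi204 (0.85), 1 fell, Ifi27 (adjusted p = 0.00973, not called with the floor), and the median was -0.003.

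**Figure D1:**
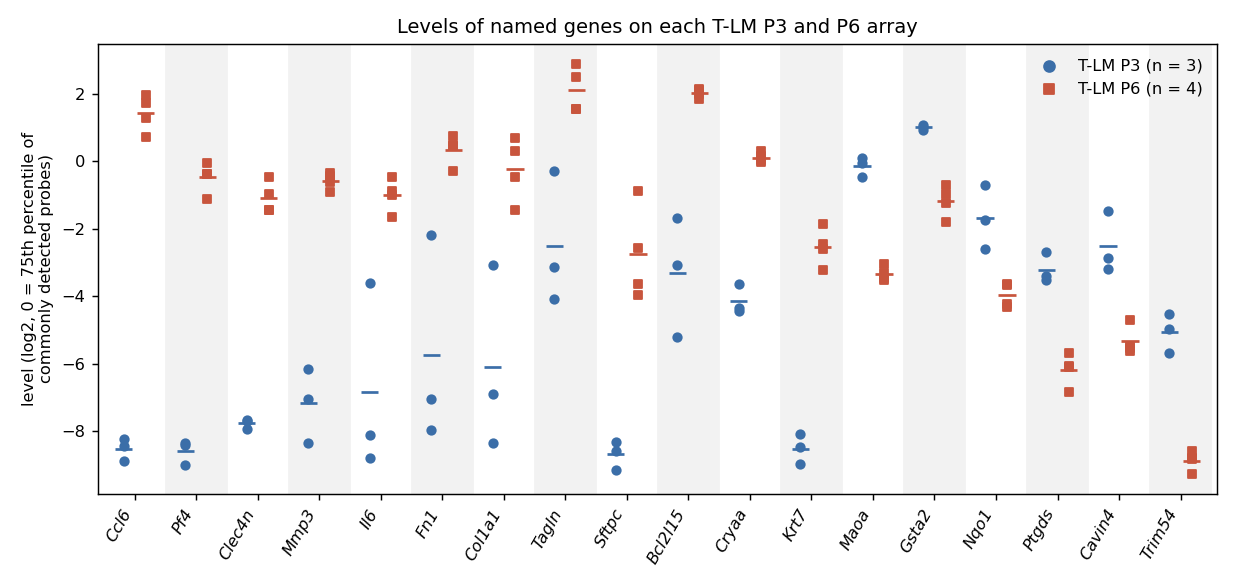
Level of 18 named genes on each T-LM P3 array (3) and P6 array (4). The vertical axis is log2 with 0 at the 75th percentile of commonly detected probes, points are arrays and lines are group means. Ccl6, Pf4 and Clec4n lie near background on all P3 arrays, Il6, Fn1 and Col1a1 have 1 P3 array well above the others, and Maoa and Trim54 are lower on every P6 array than on any P3 array.

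The transforming growth factor beta and bone morphogenetic protein (BMP) pathway held 14 risers of 41 tested members and no fall (median 0.96). Among ligands, Bmp4 stood at -7.92, -8.53 and -8.22 at P3 and at -2.63, -2.19, -2.93 and -3.16 at P6. It was above background only at P6, at least 14.1-fold higher, with little spread within either passage (adjusted p = 2.77e-08). Bmp7 was at least 1.42-fold higher. Secreted antagonists rose beside them, with follistatin (Fst) at 5.42, Grem1 at 4.86, Fstl1 at 4.76 and Bmper at 3.77. The receptor Tgfbr2 was at least 10.5-fold higher (adjusted p = 2.32e-05) and Tgfbr3 at least 2.95-fold, while Tgfb1 and Tgfbr1 each changed by 0.02. Ltbp2 and Ltbp3, which hold latent ligand in the matrix, rose by 3.21 and 2.92, Thbs1, which activates it, by 3.32 and the mediator Smad3 by 2.11, while Ltbp1 was at least 4.08-fold and the target Tgfbi at least 3.86-fold higher. The BMP target Id3 changed by -1.25 and did not pass. Without P3 replicate 2 the count was 8, and with the slide as a block 7, and Tgfbr3, Bmp7 and Thbs1 were not called with the floor.

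Matrix genes rose together in count. Fibronectin (Fn1) stood at -7.94, -7.05 and -2.19 at P3 and at 0.49, 0.75, 0.44 and -0.29 at P6 (6.08 ± 1.04, adjusted p = 0.000558). Collagen Col1a1 stood at -8.35, -6.90 and -3.07 at P3 and at 0.32, 0.68, -0.46 and -1.46 at P6. In both genes P3 replicate 5 was by far the highest P3 array and the groups did not overlap. The Col1a1 change was 5.88 ± 1.09 (adjusted p = 0.00116, or 0.0136 with the slide as a block). Among 31 tested interstitial collagens and crosslinking enzymes 11 rose (median 1.63), including Col1a2 (5.50), Col3a1 (4.85), Col6a1 (at least 7.92-fold) and the collagen chaperone Fkbp10 (5.80). That count was 3 without P3 replicate 2, 7 without P3 replicate 3 and 4 with the slide as a block.

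Among basement membrane genes 6 of 25 rose (median 1.13), with Col4a1 at least 12.6-fold higher (adjusted p = 0.000104), Col4a2 at least 10.9-fold and Nid1 at least 9.21-fold, and Lamb1 rose by 4.96. With the slide as a block 2 rose, and Nid1 was not called with the floor. Small proteoglycans and matrix glycoproteins gave 10 risers of 28 (median 1.99). These held the calcification inhibitor Mgp (5.63), Sparcl1 (at least 8.39-fold), fibrillin 1 (Fbn1, at least 6.89-fold), lumican (Lum, at least 5.43-fold), Ccn2 (3.74) and decorin (Dcn, 3.19 ± 0.58, adjusted p = 0.00103), and 4 rose with the slide as a block. Lum and Fbn1 were not called with the floor.

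Proteases and their inhibitors formed the list with the most risers, 15 of 35 with no fall (median 1.45). Mmp3 (stromelysin 1) stood at -7.03, -8.33 and -6.15 at P3 and at -0.91, -0.42, -0.34 and -0.62 at P6. It was at least 58.9-fold higher at P6 (adjusted p = 7.95e-06). The neutrophil collagenase Mmp8 was at least 11.3-fold higher, also at adjusted p = 7.95e-06. Collagenase 3 (Mmp13) was at least 15.2-fold higher, macrophage elastase Mmp12 at least 7.48-fold, the gelatinase Mmp9 at least 4.0-fold and membrane-bound Mmp14, above background on 3 of 4 P6 arrays, at least 1.95-fold, and the gelatinase Mmp2 rose by 2.38. The lysosomal cathepsin S (Ctss) rose by 5.58, and the procollagen peptidase Adamts2 by 5.42. Inhibitors rose as well, with Timp3 and the urokinase inhibitor Serpinb2 each at 4.54, Timp1 at 1.94 and Serpine2 at least 1.19-fold higher. Mmp14, Timp1 and Serpine2 were not called with the floor.

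The letters of the AP-1 motif, TGANTCA on either strand, were searched in the 250 bases before the RefSeq start of each gene (mouse build GRCm38.p6), because AP-1 is known for its sites in metalloproteinase promoters. They were present in 6 of 32 matrix protease and inhibitor promoters in the table and 3 of the 13 called, in 6 of 37 cytokine promoters and 3 of the 8 called, and in 6.87% of all 27025 promoters. The share was 4.70% of tested symbols, 7.48% of those called higher and 8.51% of those called lower. Other lists ran from 0 of 39 TGF-beta and BMP promoters to 8 of 39 interferon-stimulated ones. Glutathione transferases and Nqo1, described below among the falls, had 4 of 21. The windows are shown to let the matched letters, in capitals, be compared; a match is a description and was not tested as a site. They lie on the plus strand for Mmp3 at chr9:7445764-7445793, Mmp13 at chr9:7272467-7272496, Serpinb2 at chr1:107511317-107511346, Il6 at chr5:30012864-30012893 and Il1rn at chr2:24336707-24336736.
Mmp3: tggaagcaattaTGAGTCAgttttcgggtg
Mmp13: accccaaagtggTGACTCAtcactatcatg
Serpinb2: tgagtaaaatgtTGAATCAtacaaagaata
Il6: cTGAGTCActtttaaagaaaaaaaagaaga
Il1rn: cttctgctagacTGAGTCAcgcctctggaa

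Integrins, the receptors that bind matrix and endothelium, rose in 8 of 19 tested members (median 1.93). Itgb2, the leukocyte beta chain, stood at -5.60, -5.21 and -4.72 at P3 and at -1.70, -1.33, -1.56 and -2.01 at P6, a change of 3.53 ± 0.22 (adjusted p = 1.1e-08). Its groups were well separated with little spread in either. Itgb3, the chain shared by platelet and vascular integrins, rose by 2.62 ± 0.22 (adjusted p = 2.68e-07), and Itga6 (at least 3.52-fold), Itgax (at least 2.45-fold) and Itgb6, an epithelial activator of latent transforming growth factor (at least 2.06-fold), were above background only at P6. Itgax was not called with the floor.

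Epithelial adhesion genes and mesenchymal regulators both contributed to the 10 risers of 26 in the cadherin and epithelial-mesenchymal list (median 0.83). Krt7, a keratin of ducts, stood at -8.09, -8.96 and -8.46 at P3 and at -2.60, -1.86, -2.46 and -3.22 at P6, at least 16.1-fold higher (adjusted p = 2.42e-08). E-cadherin (Cdh1), above background only at P6, was at least 3.1-fold higher (adjusted p = 2.06e-05), and Cldn7 (at least 7.78-fold), Krt19 (1.98) and Epcam (at least 1.28-fold, above background on 2 of 4 P6 arrays) rose. The mesenchymal factors Prrx1 (at least 4.49-fold) and Snai2 (at least 1.99-fold, 3 of 4 P6 arrays) rose too, whereas vimentin (Vim, 0.33) and Krt18 (-0.11) did not pass. Leaving out P3 replicate 2, P6 replicate 2 or P6 replicate 3 each left 6 risers, as did the floor, under which Prrx1, Snai2 and Epcam were not called.

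Smooth muscle and actin-binding genes gave 12 risers of 43 (median 0.78). Acta2, smooth muscle actin, stood at -4.90, -3.87 and -0.42 at P3 and at 2.01, 2.91, 0.77 and 0.57 at P6. P3 replicate 5 came close to the lowest P6 array. The change was 4.63 ± 1.02 (adjusted p = 0.00439, or 0.0334 with the slide as a block). Tagln (4.62 ± 0.89, adjusted p = 0.00151), Myl9 (5.58), Cnn1 (4.60) and Tpm2 (4.06), all of the contractile apparatus, and the actin-sequestering Tmsb4x (6.55) rose. The count was 2 without P3 replicate 2, 6 without P6 replicate 1, 5 without P6 replicate 2 and 4 with the slide as a block, and Cnn1 was not called with the floor.

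Retinoid, prostaglandin and amine metabolism moved both ways, with 11 of 32 higher and 3 lower (median 0.96). Retinoid genes accounted for most risers. Crabp2, which carries retinoic acid to its receptor, stood at -2.18, -3.13 and -2.33 at P3 and at 0.76, 0.27, 0.80 and 0.77 at P6 (3.19 ± 0.36, adjusted p = 7.29e-06). The synthetic enzymes Aldh1a1 (at least 9.54-fold) and Aldh1a2 (at least 8.7-fold), the reductase Dhrs3 (4.22 ± 0.63, adjusted p = 0.000153), and Cyp26b1 (3.58) and Cyp26a1 (at least 2.24-fold), which degrade retinoic acid, also rose. Ptgs2, the inducible cyclooxygenase, stood at -8.18, -7.35 and -4.26 at P3 and -2.19, -0.84, -2.07 and -3.27 at P6 (4.51 ± 0.75, adjusted p = 0.000438).

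Falls in that list included genes measured well at P3. Maoa, which oxidises serotonin and noradrenaline, stood at -0.06, 0.10 and -0.47 at P3 and at -3.32, -3.04, -3.51 and -3.45 at P6. The 3 P3 arrays were alike, the 4 P6 arrays were alike, and the change was -3.19 ± 0.25 (adjusted p = 9.83e-08). Ptgds, the lipocalin-type prostaglandin D synthase, stood at -3.40, -2.70 and -3.53 at P3 and at -6.09, -6.84, -6.06 and -5.69 at P6 (-2.96 ± 0.33, adjusted p = 7.76e-06).

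Other falls included glutathione transferases, which conjugate electrophiles. Gsta2 stood at 1.08, 1.01 and 0.92 at P3 and at -1.79, -1.25, -0.96 and -0.69 at P6 (change -2.17 ± 0.34, adjusted p = 0.000242). Gsta3 (-2.77 ± 0.37, adjusted p = 4.64e-05) and Gsta4 (-2.46 ± 0.28, adjusted p = 8.03e-06) fell as well. Related members of this family may share probe signal, which was not tested. Nqo1, a quinone reductase, stood at -0.69, -1.74 and -2.58 at P3 and at -4.32, -3.63, -4.22 and -3.67 at P6 (-2.29 ± 0.34, adjusted p = 0.00013). Neither Gsta2 nor Nqo1 overlapped between passages.

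Because genes of this kind are known targets of the antioxidant response element, its letters TGACNNNGC were searched in the same promoter windows on both strands. They were present in 3 of 21 glutathione transferase and Nqo1 promoters (14.3%) and in 10.2% of all promoters. The share was 11.8% of tested symbols and 13.5% of those called lower, so the family lay near it. The match in Gsta3, on the plus strand at chr1:21240453-21240482, is shown with the matched letters in capitals and was not tested as a site. Over all promoters, 98 matches of this motif overlapped one of AP-1.
Gsta3: caactcaggcaTGACATTGCatttttcttc

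Skeletal muscle genes also moved both ways, with 5 of 21 higher and 3 lower. Trim54, a ligase of the sarcomere, stood at -4.97, -4.54 and -5.68 at P3 and was at or near background at P6, at -8.81, -8.80, -9.25 and -8.59. It was at least 3.16-fold lower (adjusted p = 2.08e-08). Cavin4, a coat protein of muscle caveolae, stood at -1.46, -2.87 and -3.19 at P3 and -5.46, -4.69, -5.62 and -5.53 at P6 (-2.81 ± 0.32, adjusted p = 8.53e-06), and the muscle ligase Trim63 fell by 1.16. The acetylcholine receptor subunit Chrna1 (at least 7.06-fold) and skeletal actin Acta1 (3.79) rose. The other 3 risers, Tnnc1, Xirp1 and Myh3, were above background on 2, 1 and 2 of 4 P6 arrays and were not called with the floor. The count of 5 was 2 without P3 replicate 2 or P6 replicate 3 and 3 without P6 replicate 2.

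Some genes rose outside these lists. Wfdc17, a secreted protein of activated macrophages, was at least 45.2-fold higher (adjusted p = 0.000174), and the fatty acid carrier Fabp5 (7.17) and the oxidase subunit Cyba (6.59) rose. Bcl2l15, of the Bcl-2 family, stood at -3.06, -5.19 and -1.67 at P3 and at 1.83, 1.98, 2.10 and 2.13 at P6 (5.32 ± 0.54, adjusted p = 2.64e-06). Cryaa, a small heat shock protein first known from the lens, stood at -4.44, -4.36 and -3.65 at P3 and at 0.29, 0.03, 0.15 and -0.03 at P6 (4.26 ± 0.23, adjusted p = 5.36e-09). In both genes the P6 arrays lay close together, far above every P3 array. Prl2c5 (5.24 ± 0.54) and Prl2c1 (5.06 ± 0.43, adjusted p = 3.09e-07), of the proliferin family of placental hormones, rose together and may share probe signal.

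Cell cycle, hypoxia, lipid and stress lists had shares of called members near or under those of all symbols. Of 53 cell cycle and DNA replication genes 2 rose, the kinase inhibitor Cdkn2b (at least 3.92-fold) and cyclin Ccnd2 (3.56), neither called with the floor or without P3 replicate 2, and the median was 0.16. Hypoxia and glycolysis gave 3 of 41, the lactate exporter Slc16a3 (5.63), Stc2 (at least 2.4-fold, not called with the floor) and Pfkfb4 (1.75 ± 0.20, adjusted p = 9.81e-06), with a median of -0.065. Cholesterol and lipid synthesis gave 2 of 40, among them the lipoprotein component Apoe (at least 15-fold). The unfolded protein and integrated stress response gave Stc2 higher and Phgdh, of serine synthesis, lower (-0.80) among 42. The epidermal and insulin-like growth factor family lay above that share, with 5 of 22 higher (22.7%, beside 7.20% of all tested symbols). The risers were Egfr (3.41), its ligand Ereg (3.37), Irs2 (at least 3.4-fold), Igfbp5 (at least 2.49-fold) and Pappa2 (at least 2.14-fold). That count was 3 without P3 replicate 2 and 2 with the floor.

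**Figure D2:**
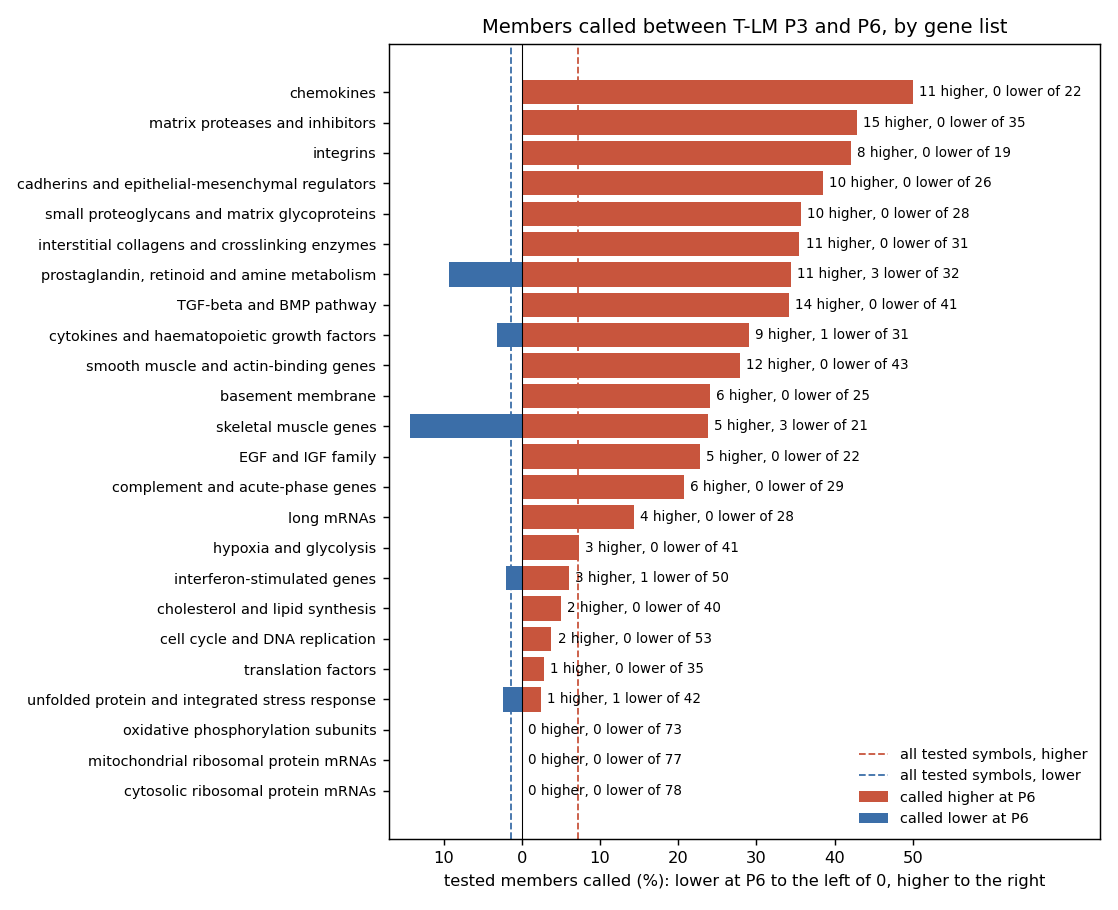
Percentage of the tested members of each gene list that rose (right of 0) or fell (left of 0) from T-LM P3 to P6. Counts are beside each bar, and lists of cell type markers are not drawn. Dashed lines mark the 7.20% and 1.40% of all 12046 tested symbols. Chemokines (11 of 22) and matrix proteases and inhibitors (15 of 35) have the longest bars, and none of the 78 cytosolic ribosomal protein mRNAs was called.

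Long mRNAs and ribosomal protein mRNAs moved in opposite directions on 1 of the 3 slides. The long list held 32 large cytoskeletal, ubiquitin ligase, chromatin and trafficking genes, of which 31 were on the array and 28 were tested. Of the tested genes 4 rose and none fell (14.3% beside 7.20%), and 27 had a change above 0, with a median of 0.75. Dst, which encodes the cytoskeletal linker dystonin, stood at -7.74, -5.24 and -5.81 at P3 and at -4.46, -4.16, -3.82 and -4.51 at P6 (2.02 ± 0.40, adjusted p = 0.00198). The cadherin Fat1 stood at -5.03, -2.99 and -3.27 and at -2.29, -1.77, -1.81 and -2.33 (1.71 ± 0.38, adjusted p = 0.00453). In both genes P3 replicate 2 lay well under the other P3 arrays, and no P3 array reached a P6 array.

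The endocytic receptor Lrp1 rose by 1.54 ± 0.36 (adjusted p = 0.00642) and the kinase anchor Akap9 by 1.43 ± 0.34 (adjusted p = 0.00791). Plectin (Plec), a larger linker still, stood at -3.97, -0.27 and -1.61 at P3 and at -0.73, 0.61, -0.39 and -0.88 at P6 with overlap, and its change of 1.60 did not pass (adjusted p = 0.0955). Nf1 alone lay below 0 (-0.39). The count of 4 was 1 without P3 replicate 2, P6 replicate 2 or P6 replicate 3, 2 without P6 replicate 1, and 10 without P3 replicate 3. Without P3 replicate 2 the list median was 0.38, and that of all tested symbols 0.03.

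None of 78 tested cytosolic ribosomal protein mRNAs rose or fell by the limma fit. Their changes ran from -0.55 to 0.21 with a median of -0.095, and 19 were above 0. Rpl35, of the large subunit, stood at 5.54, 4.39 and 5.08 at P3 and at 4.81, 4.73, 4.70 and 5.26 at P6 (-0.13 ± 0.28, adjusted p = 0.812). P3 replicate 2 was the highest of the 7 arrays and P3 replicate 3 the lowest, with all P6 arrays between them. The list median was 0.09 without P3 replicate 2 and -0.37 when arrays were scaled to all probes. Mitochondrial ribosomal proteins (77 tested, median -0.18) and subunits of oxidative phosphorylation (73 tested, median -0.29) also had no call. Of their changes, 18 of 77 and 6 of 73 were above 0. Within the slides of both replicates 2, both replicates 3, and P3 replicate 5 with P6 replicate 4, mitochondrial medians were -0.33, -0.06 and -0.13. Those of oxidative phosphorylation were -0.78, -0.075 and -0.16. Of 35 translation factors 1 rose, Eif3b, a scaffold of the initiation factor eIF3 (1.03 ± 0.24, adjusted p = 0.00664).

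Ribosomal protein mRNAs are known to start with a run of pyrimidines, and the starts of the brightest members in the table are shown beside those of called long mRNAs. An unbroken run of at least 8 C or T letters that reached within 5 bases of the RefSeq start was found in 20 of 58 ribosomal protein promoters in the table (34.5%), 2 of 25 long mRNA promoters (8.0%) and 9.63% of all promoters. Each window holds 15 bases on either side of the start in GRCm38.p6, with the longest run that reaches within 5 bases of the start in capitals and runs further off in lower case. Rpl41, also of the large subunit, has a run of only 3 letters there. The windows lie on the minus strand for Rpl35 (chr2:39005117-39005146), Rpl41 (chr10:128549154-128549183), Rps10 (chr17:27635230-27635259) and Lrp1 (chr10:127621134-127621163) and on the plus strand for Rps24 (chr14:24490663-24490692), Dst (chr1:34011580-34011609) and Akap9 (chr5:3928171-3928200).
Rpl35: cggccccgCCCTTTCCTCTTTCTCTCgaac
Rpl41: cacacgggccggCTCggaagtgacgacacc
Rps10: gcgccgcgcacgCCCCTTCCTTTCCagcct
Rps24: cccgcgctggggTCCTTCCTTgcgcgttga
Dst: gcccggagatgCCgcagaagcgcggcgcat
Lrp1: cccccgcggcaCTTCagtcaggggagcagc
Akap9: ccctccctccgCCCCggtcaagccgggcgc

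Over its 31 genes on the array, the median level of the long list was -5.31, -4.06 and -4.34 on the P3 arrays and -3.90, -3.74, -3.42 and -3.85 on the P6 arrays. The median level of the ribosomal protein mRNAs was 4.46, 3.83 and 4.20 at P3 and 4.21, 3.99, 4.02 and 4.32 at P6. The long medians did not overlap between passages and the ribosomal medians did. The difference of these medians, long minus ribosomal, was -9.77, -7.89 and -8.53 at P3 and -8.11, -7.73, -7.44 and -8.17 at P6, and it overlapped because P3 replicate 3 lay within the range of the P6 arrays. Its means were -8.73 ± 0.96 (SD, n = 3) and -7.86 ± 0.34 (SD, n = 4). At other times the mean was -7.71 at P0, -6.89 at P1, -8.63 at P2, -8.17 at P4 and -8.88 at P5, so the P3 mean lay between those of P2 and P5.

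**Figure D3:**
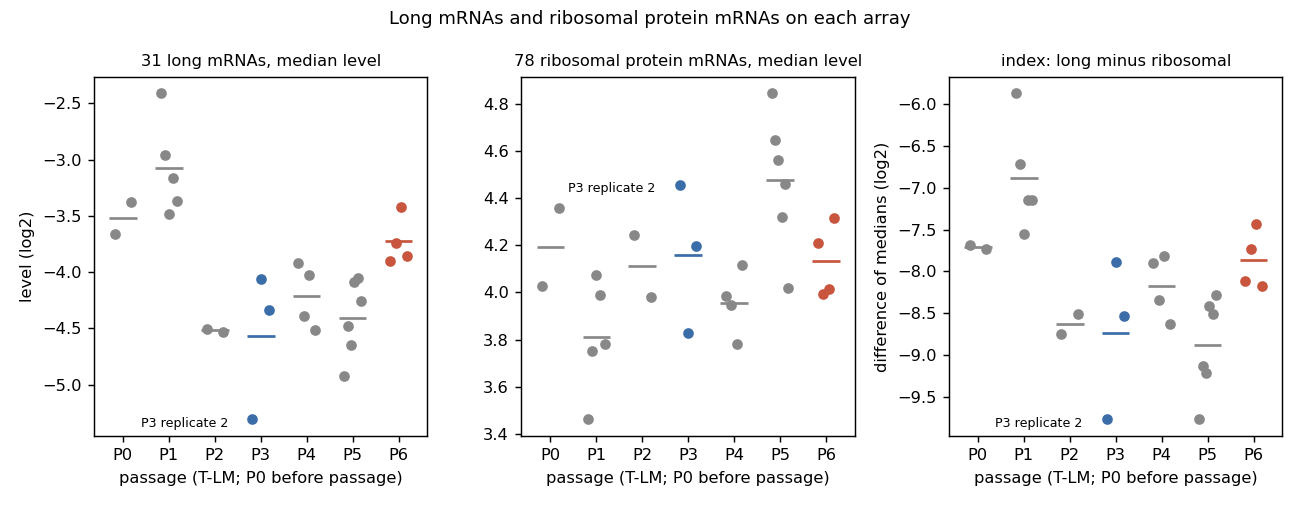
Median level (log2) of long mRNAs, of ribosomal protein mRNAs, and their difference, on each array from P0 through T-LM P6. Points are arrays and bars are group means. P3 replicate 2 is the labelled low point of the long mRNA panel at -5.31, and the differences at P3 and P6 overlap.

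Within slides the shift was uneven. On the slide with both replicates 2, the long mRNAs had a median P6 minus P3 difference of 1.91, with 27 of 28 above 0, and the ribosomal protein mRNAs one of -0.65, with 3 of 78 above 0. On the slide with both replicates 3 the medians were 0.29 and 0.12, and on the slide with P3 replicate 5 and P6 replicate 4 they were 0.44 and 0.09. The opposite direction of the ribosomal protein mRNAs was thus seen on 1 slide of 3, the slide of the array with the fewest probes above background. Whether RNA quality or labelling had a part in it was not tested. Sorted by genomic span, introns included, genes in 5 equal classes from short to long had median changes of 0.02, 0.10, 0.14, 0.16 and 0.34, and on the slide with both replicates 2 the shortest and longest classes stood at 0.00 and 1.07. They stood at 0.08 and 0.08 on the slide with both replicates 3, and the longest class stood at 0.10 on the remaining slide.

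**Figure D4:**
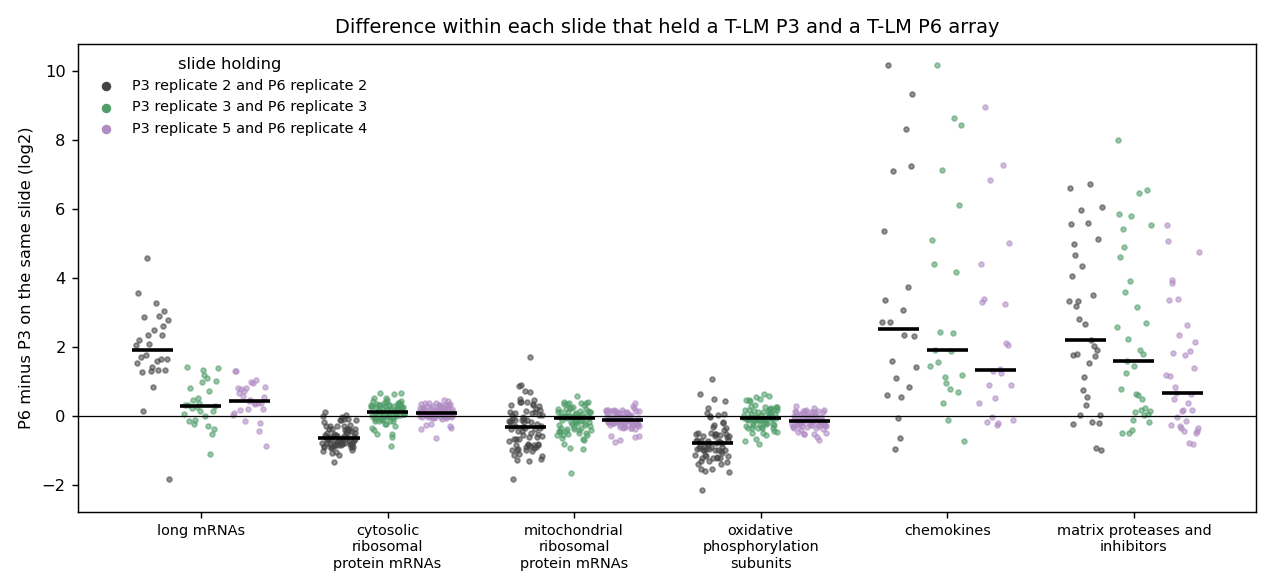
P6 minus P3 difference (log2) of each tested gene on the 3 slides that held both passages, for 6 lists. Points are genes and bars are medians. Long mRNAs have medians of 1.91, 0.29 and 0.44, ribosomal protein mRNAs -0.65, 0.12 and 0.09, and chemokines and matrix proteases stay above 0 at the median on each slide.

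With the difference of medians added to the fit as a covariate, 1349 probes passed in place of 1496, and 1091 passed in both fits. Of the 1349, 1139 were higher at P6 and 210 lower. The changes of Ccl6 (11.03), Mmp3 (7.26), Bcl2l15 (5.48) and Maoa (-3.30) kept their direction in that fit.

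Markers of other cell types rose with these genes. In bulk RNA, fewer cells of a type and less RNA per cell cannot be told apart. Of 30 macrophage markers, 7 to 9 were above background on each P3 array and 17 to 24 on each P6 array, and their summed level (log2) ran from 1.98 to 2.56 at P3 and from 2.50 to 2.94 at P6. Of 26 tested, 12 rose and none fell. The lectin Clec4n stood at -7.69, -7.94 and -7.66 at P3 and at -0.48, -0.96, -1.44 and -1.45 at P6, at least 44.2-fold higher (adjusted p = 0.000167), and the signalling adaptor Tyrobp was at least 19.9-fold higher (adjusted p = 0.000373). Among defining markers, the receptor Csf1r overlapped, at -2.33, -5.47 and -2.97 against -2.91, -3.00, -2.59 and -3.62, Cd68 changed by -0.76 without passing, and Cd163, C1qb, C1qc, Cx3cr1 and Fcgr1 were not well above background on any of the 7 arrays. The pan-leukocyte Ptprc passed the test but was above background on 2 of 4 P6 arrays and no P3 array, and was not called with the floor.

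Of 16 fibroblast markers 2 to 7 were above background per P3 array and 10 to 13 per P6 array, and 7 of 13 tested rose, 6 of them also in the matrix lists. Their summed level ran from -2.02 to -0.28 at P3 and from 1.35 to 3.09 at P6, and 4 were called without P3 replicate 2 and 1 with the slide as a block. Dpt, Pi16 and Inmt were not well above background on any array.

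Lung epithelial markers included surfactant proteins. Sftpc, made by alveolar type 2 cells, stood at -8.31, -9.15 and -8.58 at P3 and at -3.64, -0.88, -2.57 and -3.95 at P6, at least 13.8-fold higher (adjusted p = 4.77e-05). Sftpd was at least 4.0-fold higher (adjusted p = 2.66e-06), and Sftpb (at least 2.75-fold), Ager (at least 2.24-fold) and Foxj1 (at least 1.29-fold) were each above background on 3 of 4 P6 arrays and no P3 array. These made 5 of 11 tested, or 3 without P3 replicate 2 and 2, Sftpc and Sftpd, with the floor. Of all 15 markers, 4 to 5 were above background per P3 array and 7 to 11 per P6 array, with summed levels of 0.15 to 0.54 and 0.73 to 1.27. Sftpa1, Nkx2-1, Scgb3a2 and Slc34a2 were not well above background on any array.

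Kidney tubule markers, set to check the labelled origin, were above background for 6 to 9 of 26 per P3 array and 8 to 12 per P6 array, and 13, among them Pax2, Lrp2, Umod and Cdh16, were on none of the 7. The renal factor Pax8 was above background on all 7, between -4.35 and -2.90. Mesothelial Msln rose by 1.94 ± 0.22 (adjusted p = 9.05e-06), while Upk3b, Gpm6a and Bnc1 were not well above background. Single markers or pairs rose in the other sets: Mpo among 5 neutrophil markers, Cd79b and Lck among 5 lymphocyte markers, Ppbp among 2 platelet markers, Cldn5 among 5 endothelial markers and Aqp1 and Cubn among 13 kidney markers, with none of 6 alveolar macrophage and eosinophil markers. Of these, Mpo, Cd79b, Cldn5 and Cubn were not called with the floor. The endothelial markers Pecam1, Tek, Tie1 and Erg, the alveolar macrophage markers Siglecf, Marco and Chil3, and Cd3d of T lymphocytes were not well above background on any of the 7. The part of other cell types in the chemokine, protease and matrix rises was not tested.

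**Figure D5:**
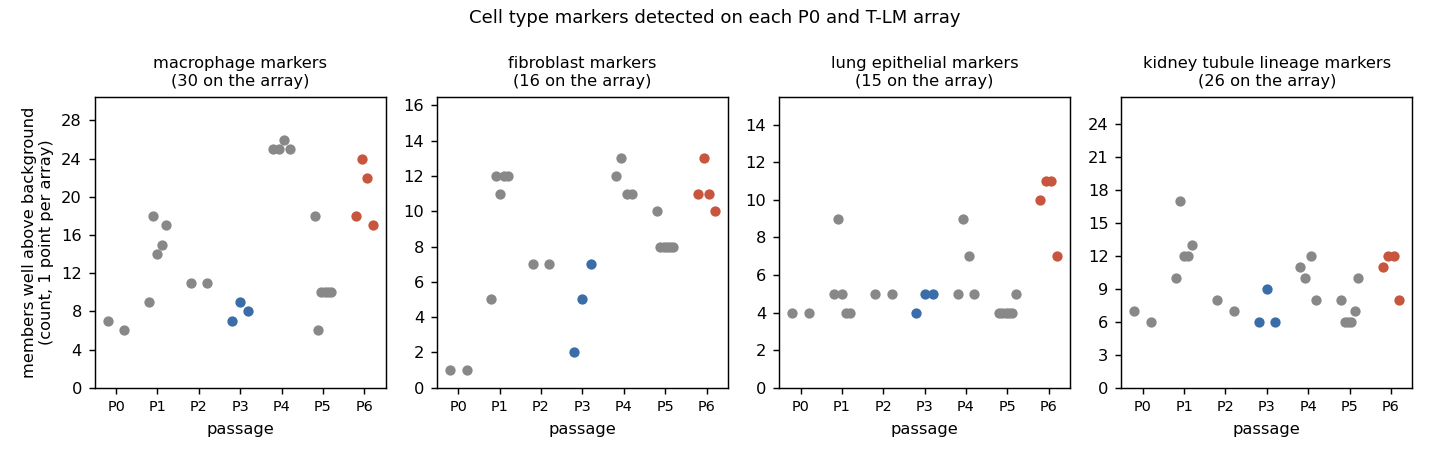
Number of marker genes well above background on each array, from P0 through T-LM P6, for macrophages (30 markers), fibroblasts (16), lung epithelium (15) and kidney tubule (26). Points are arrays. The macrophage count is 9 to 18 at P1, 7 to 9 at P3, 25 to 26 at P4, 6 to 18 at P5 and 17 to 24 at P6.

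The course over passages was not steady. Ccl6 averaged -7.88 at P0, -4.17 at P2, -8.52 at P3, 1.31 at P4, -2.73 at P5 and 1.42 at P6. Sftpc averaged -7.26 at P4 and -7.99 at P5, near background, and -2.76 at P6. Maoa averaged -0.95 at P2, -3.04 at P4, -2.31 at P5 and -3.33 at P6. Ccl6 and Maoa were thus near their P6 means by P4, whereas Sftpc was not.

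The same passages were sampled on the other routes, with separate arrays, and the difference in change was tested in 1 limma fit over 59 arrays. KPT had 2 samples at P3 and 5 at P6, and K-LM 5 and 3. Of 23553 probes, 118 changed differently in T-LM and KPT (0.501%), 104 more upward in T-LM and 14 more downward. The surfactant genes Sftpd and Sftpc changed by 4.41 ± 0.48 (adjusted p = 5.68e-08) and 6.13 ± 0.99 (adjusted p = 0.000217) more in T-LM, and their own KPT changes were -0.61 and -0.21. Mmp3 changed by 6.09 ± 1.15 more (adjusted p = 0.00159, KPT change 0.51), Bcl2l15 by 6.33 ± 1.22 (adjusted p = 0.00187, KPT change -1.01) and Itgb2 by 3.15 ± 0.58 (adjusted p = 0.00117). Cavin4 differed the other way, by -3.28 ± 0.70 (adjusted p = 0.00605). Leaving out P3 replicate 3 or P6 replicate 3 gave 61 and 75 such probes.

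Against K-LM, 356 probes differed (1.51%), 253 more upward in T-LM, and 230 did without T-LM P3 replicate 3. All K-LM P6 arrays lay on 1 late slide, for which the fit was adjusted through repeat arrays. Ccl6 changed by 9.61 ± 2.15 more in T-LM (adjusted p = 0.00489, K-LM change 0.32), Krt7 by 4.43 (adjusted p = 0.000425) and Il11 by 6.51 (adjusted p = 0.00258). The transcription factor Zbtb16 and the acute-phase inhibitor Serpina3n had T-LM minus K-LM differences of -7.03 and -7.62, and their K-LM changes were 6.42 and 6.80. The long mRNA Dst changed by 2.06 in KPT in this fit, beside 2.02 in the T-LM fit above, which held fewer arrays. KPT had 2 samples at P3, and the long list as a whole is not described here for the other routes.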

How the data were processed

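Total RNA was labelled with Cy5 after low-input amplification and hybridised to one-colour Agilent arrays of 62976 spots, of which 3671 were controls. The deposited scanner files give each spot's processed intensity, median intensity, local background and flags, and the deposited series table gives log2 values made by the authors, whose scaling was used only as an alternative. Flagged spots were left out and spots of a probe averaged. Levels were log2 of the processed intensity minus each array's 75th percentile over the 11289 probes detected on all arrays. Probes entered the test if the scanner flag for signal over background was set in 2 or more of the fitted arrays. The number of arrays, 3 at P3 and 4 at P6, limits the precision.

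Groups came from sample titles. Changes were fitted with limma 3.58.1 (R 4.3.3, statmod 1.5.0) as 1 mean per passage on 21 arrays (P1 left out), and route differences on 59 arrays with a term for the late slide estimated from RNA samples arrayed again. Of 55681 probes, 28026 matched 21154 gene symbols, and 27655 had none. The brightest probe stood for a symbol. The members and gene lists were chosen with earlier results of these data known. Genes named by rule were the 10 largest rises and falls among called symbols whose passages did not overlap, the 8 largest each way among symbols above background on all 7 arrays, up to 3 called members of each list in each direction (or the 2 brightest where none was called), and the 3 largest route differences each way. Other list members are named as members of their list, and some genes are not reported here. Normexp background correction (offset 50) used the median intensity, since no mean intensity is in the files used here. The other alternatives were scaling over all probes, quantile normalization, the series table, other filters, a floor on dim values, other sets of arrays, slide and replicate blocks, the difference of long and ribosomal medians as a covariate, an intensity trend and leaving out each replicate. Promoter sequences are from RefSeq (GRCm38.p6). The pipeline was tested on simulated data, with 200 of 21055 probes changed between P3 and P6. It called 27% of log2 changes of size 1, 77% of those of size 2 and 1 unchanged probe. A gene that was not called may therefore still have changed.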

Additional observations from a re-analysis of the deposited data

Results flagged for a closer look

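Among 109 sets of 4 P6 values examined, 2 had 1 array apart from the rest, where about 1 in 20 would by chance. For Cavin4 the gap of P6 replicate 2 to its neighbour was 0.830 of the range, and for Eif3b that of P6 replicate 3 was 0.892.

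Genes named by rule whose P3 to P6 change differed between routes in the limma fit are given here as T-LM minus the other route (log2), and for genes not above background at T-LM P3 the size rests on dim values. Against KPT, the change was higher in T-LM for lung epithelial genes (Sftpd 4.41, Sftpc 6.13, Sftpb 4.22), and for the adhesion genes Cdh1 (3.16), Itgb2 (3.15) and Cldn5 (2.97). The same held for the proliferin genes Prl2c5 (7.54) and Prl2c1 (7.30), and Bcl2l15 (6.33), Mmp3 (6.09), Ppbp (3.96), Bmp4 (3.59), Cryaa (3.06) and Oasl1 (2.27). The muscle genes Cavin4 (-3.28) and Klhl30 (-2.51) and the transcription cofactor Eya4 (-2.64) had the lower change in T-LM. Adjusted p ran up to 0.00924, the value for Bmp4.

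Against K-LM, the chemokines Ccl6 (9.61), Cxcl14 (8.72), Ccl9 (7.81) and Ppbp (3.53), the cytokine Il11 (6.51) and Bcl2l15 (5.62) had the higher change in T-LM. So had Sftpc (6.26), Sftpd (3.86) and Sftpb (3.20), Krt7 (4.43), Cdh1 (3.94), Itgb2 (2.81), Cldn5 (2.84), Msln (2.39), Dhrs3 (4.13) and Cryaa (2.06). Serpina3n (-7.62), Zbtb16 (-7.03), Vnn3 (-4.72), Eya4 (-2.39) and Trim63 (-2.01) had the lower change. All K-LM P6 arrays lay on the late slide, and what that slide adds beyond the adjustment cannot be told apart from the route.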

How the results depend on the processing

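The 1496 called probes (1202 higher, 294 lower) were 379 (229 and 150) where a probe had to be above background on all arrays of the fit, which removes genes that were dim at any passage. They were 857 (693 and 164) with the slide as a fixed block. The lower count was 639 with scaling over all probes, 171 without a filter and 93 with P3 and P6 arrays alone. Leaving out each replicate gave 873 to 1770 called, 727 to 1457 higher and 146 to 313 lower. Route differences were 11 (KPT) and 86 (K-LM) with the strict filter, 224 (K-LM) without a filter, and 61 to 137 and 230 to 339 with each replicate left out. The P6 minus P3 difference in long minus ribosomal medians was 0.87. It was 2.04 within the slide of both replicates 2, 0.349 to 1.289 with each replicate left out, and 0.521 to 1.046 under the other alternatives except the within-slide ones.

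Replicate numbers 2 and 3 are shared between passages and also mark a shared slide. The deviations of same-numbered arrays correlated at -0.377 and -0.0794. Both pairs also share a slide, so these values cannot decide whether the numbers mark lineages. In the main fit the numbers were taken as names only. With a replicate block, 873 probes were called, 717 higher and 156 lower.

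Of 109 genes named by rule and reported, 99 were called, 66 of them in every fit with a replicate left out and 71 with the slide as a fixed block. Reversed values were Plet1 at -0.057 (quantile) and -0.054 (series table), and with the covariate Mrpl33 at 0.091, Cox6a1 at 0.022, Car4 at 0.034 and Rpl35 at 0.392. Rpl35 was also 0.053 (quantile) and 0.138 without P3 replicate 2, its fits with a replicate left out running from -0.435 to that value. The causes were not tested. The alternative and the naming rule that need protein lengths were not run, as no protein table was used here.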

Other observations

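Detoxifying genes outside the lists, chosen after their values were seen, were mostly lower at P6. Of 22 tested glutathione transferases, 7 fell and 2 rose, beside 1.40% and 7.20% of all tested symbols. In this family 20 changes lay below 0 and the median was -0.71, while 7336 of all 12046 tested symbols had a change above 0. Besides Gsta2, Gsta3 and Gsta4, the mu-class genes Gstm1 (-1.52), Gstm4 (-1.43), Gstm3 (-1.26) and Gstm2 (-1.16) fell, and the omega-class Gsto1 rose (3.80). The pi-class Gstp3 passed the test but was above background on 1 of 4 P6 arrays and no P3 array, and with dim values raised to a floor it changed by 0.083 and was not called (adjusted p = 0.723, limma). Gclm, the modifier subunit of glutathione synthesis, fell by 1.37 and the heme-degrading Hmox1 by 1.03, while the catalytic subunit Gclc changed by -0.72 and did not pass (adjusted p = 0.0445, limma). Near-identical family members may share probe signal, which was not tested.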
